A study of Mus musculus with 6 samples.

Results

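The respiratory chain genes of the mouse were taken as every gene whose symbol begins with Nduf, Uqcr, Cox4, Cox5, Cox6, Cox7, Cox8 or Atp5, is Sdha, Sdhb, Sdhc or Sdhd, or begins with mt-Nd, mt-Co, mt-Cytb or mt-Atp. The symbols came from the deposited FPKM table and were linked by gene identifier to the deposited read counts. Of 109 matching symbols, 4 ended in -ps and were left out as pseudogenes, which left 105 of the 47729 genes in the count files. The nuclear genome encodes 92 of them and the mitochondrial genome (mt) encodes 13. Among the nuclear members, 36 encode subunits of complex I, 4 of complex II, 8 of complex III, 18 of complex IV and 15 of complex V. The other 11 nuclear members are the complex I assembly factors Ndufaf1 to Ndufaf7, together with Cox7a2l, Atp5s, Atp5sl and Ndufa4l2. Of the mt-encoded members, 7 belong to complex I, 1 to complex III, 3 to complex IV and 2 to complex V. Ndufa4 was counted with complex IV, where its protein is found, although its symbol was first given for complex I.

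Complexes I and II pass electrons from NADH and succinate to ubiquinone, complex III passes them on to cytochrome c, and complex IV passes them to oxygen. Complexes I, III and IV pump protons across the inner mitochondrial membrane, and complex V, the ATP synthase, uses that gradient to make ATP. Every complex but complex II is built from subunits of both genomes: the mt genes are transcribed inside the organelle as long precursors, and the nuclear subunits are made in the cytosol and imported. Hepatocytes are rich in mitochondria and use this chain to pay for gluconeogenesis, urea synthesis and bile acid synthesis.

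Livers of C57BL/6 mice were the source of the RNA, from animals fed 0.1% DDC for 17 days. DDC in the diet blocks heme synthesis and damages bile ducts and the hepatocytes around them. The 3 control libraries are titled WT and are named shNC in the series design, and the 3 others are named Atoh8 KD or shAtoh8, a knockdown of the transcription factor gene Atoh8. Both groups shared the strain, diet and time, and no library without DDC was analysed here. The labels give the source as liver, the cell type as hepatocyte and the extraction as from removed livers. How the knockdown was delivered, and whether the replicates were separate animals, is not stated in the labels, so a p-value here reflects the spread over these libraries, and part or all of that spread may be technical. In bulk RNA, fewer cells of a type and less RNA per cell cannot be told apart.

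The libraries held 31912058 to 37969644 reads in genes, and 3 reads corresponded to 0.0790 to 0.0940 CPM, read counts scaled to library size. The targeted gene, Atoh8, had 63.7, 16.8 and 16.4 CPM in the controls (replicates 1, 2 and 3, here and throughout) against 10.2, 9.82 and 5.64 CPM with the knockdown, so the groups did not overlap. Control replicate 1 stood apart from the other 5 libraries. Over the genes tested, the deviation of its log2 CPM from the gene's mean had a Spearman correlation of 0.63 with GC content, against -0.49 and -0.45 in control replicates 2 and 3 and -0.31 to 0.18 in the knockdown libraries. It had 2.48% of reads outside genes, against 4.18% to 5.66% in the others. Each result is therefore given with all 6 libraries and without control replicate 1. The defining hepatocyte genes were abundant in every library, with Alb between 77114 and 102930 CPM.

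Several mt-encoded members have near-identical copies in the nuclear genome, and these sequences show why their read counts are uncertain. A stretch of chromosome 1 (GRCm38, minus strand, 24611535 to 24615565) carries annotated copies of mt-Co2, mt-Co3, mt-Atp6, mt-Nd3, mt-Nd4 and mt-Nd4l. Over its 681 aligned bases, the copy Gm28661 was identical to mt-Co2, which encodes the copper-binding subunit of complex IV. The copy Gm28438 differed from mt-Nd3, a complex I subunit, at 1 of 345 aligned bases, and that base is in capitals below. The windows cover bases 311 to 370 of mt-Co2 and bases 1 to 60 of mt-Nd3, read 5′ to 3′ from the GENCODE M21 transcripts.
mt-Co2: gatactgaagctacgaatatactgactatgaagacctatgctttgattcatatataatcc
Gm28661: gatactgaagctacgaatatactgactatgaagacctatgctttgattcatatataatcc
mt-Nd3: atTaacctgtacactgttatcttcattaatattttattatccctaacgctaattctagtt
Gm28438: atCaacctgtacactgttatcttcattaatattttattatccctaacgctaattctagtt

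Reads were listed for copies and mt genes alike. In control replicate 2, mt-Co2 had 3203 reads and Gm28661 had 1551, and mt-Atp6 had 2484 reads where its copy Gm10925 had 3298. The share of 50-base windows that also occur in another annotated gene was 100% for mt-Co2, 99.9% for mt-Co3, 99.5% for mt-Atp6, 98.8% for mt-Nd4l, 98.0% for mt-Nd3, 62.2% for mt-Nd4 and 51.1% for mt-Co1. It was under 10% for the other 6, namely mt-Nd1, mt-Nd2, mt-Nd5, mt-Nd6, mt-Cytb and mt-Atp8. The count files hold 0 in their line for alignments that are not unique, and the levels of the 5 members above 90% are uncertain. Among the nuclear members, 31 shared over 5% of their windows with another gene and 1 shared over 50%. That member was Ndufaf2 at 80.9%, which overlaps the antisense gene B230220B15Rik, and the labels do not say whether counting used strand.

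Nuclear-encoded subunits are known for promoters with sites of the factors NRF1, GABP (an ETS factor), YY1 and the estrogen-related receptors. RefSeq promoter windows of GRCm38.p6, 300 bases long with 250 before the start, were at hand for 76 of the 92 nuclear members. They were searched on both strands for GCGCA and GCGC parted by any base (NRF1), CCGGAAG (ETS), AAGATGG (YY1) and TCAAGGTCA (ERR). The NRF1 letters occurred in 19 of the 76 members, or 25% of them, and in 24.4% of their windows, against 4.6% of the 32851 windows of all genes and against 11.2% of the genes tested for expression. The ETS letters occurred in 17 members (22.4%), against 19.4% of tested genes, and the YY1 letters in 12 (15.8%), against 8.33%. The ERR letters occurred in 2 members (2.63%), against 0.349%. Of the 76, 42 held at least 1 of the 4 motifs, and 4 held both the NRF1 and the ETS letters. These matches are descriptions of sequence and are not evidence of binding. The 250 bases before the start are shown for Ndufaf4 and Ndufs5, which held the NRF1 letters (in capitals). Both were called lower without control replicate 1 but not with all 6 libraries (Ndufs5: -0.51, adjusted p = 0.0190 and 0.258). These genes and Ndufb4 were chosen because their adjusted p without control replicate 1 was the smallest among members with the NRF1 letters. Other members with these letters, such as Ndufa8, Uqcrc1, Atp5g2 and Ndufaf5, were not called in either fit. The match began 113 bases before the start in Ndufaf4 (chr4:24897833-24898082, plus strand) and 98 bases before it in Ndufs5 (chr4:123718187-123718436, minus strand).
Ndufaf4: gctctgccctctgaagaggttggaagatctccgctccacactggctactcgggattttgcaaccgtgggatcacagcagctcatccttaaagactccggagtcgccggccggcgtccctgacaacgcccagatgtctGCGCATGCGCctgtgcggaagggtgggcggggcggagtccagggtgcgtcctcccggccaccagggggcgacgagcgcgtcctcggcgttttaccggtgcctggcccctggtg
Ndufs5: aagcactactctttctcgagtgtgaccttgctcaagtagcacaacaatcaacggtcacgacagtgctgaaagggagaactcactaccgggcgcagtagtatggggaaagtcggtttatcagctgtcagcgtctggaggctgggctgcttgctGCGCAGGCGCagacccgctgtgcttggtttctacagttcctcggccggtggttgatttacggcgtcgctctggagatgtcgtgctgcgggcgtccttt
Ndufb4 held the NRF1 letters in 3 places, beginning 191, 79 and 22 bases before the RefSeq start.

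Levels per length were compared on the deposited FPKM scale (fragments scaled to transcript length and library size), as means over the 3 controls. The mt-encoded members held the top 7 places. mt-Co1, the catalytic subunit of complex IV, stood at 23225 FPKM (GRCm38 chromosome M, 5328 to 6872, plus strand). It was followed by mt-Nd1 at 10042, mt-Nd2 at 9170, mt-Cytb at 8336, mt-Nd6 at 3686, mt-Nd5 at 3156 and mt-Nd4 at 3058 FPKM. Neighbours in this order were not set apart by their spread: mt-Nd1 ranged from 5645 to 13516 FPKM over the controls and mt-Cytb from 3990 to 12116. The highest nuclear member was Atp5b, the catalytic beta subunit of the ATP synthase, at 1709 FPKM. Cox4i1, a nuclear subunit of complex IV, came next at 719 FPKM and Ndufa4 at 639 FPKM. The median nuclear member stood at 142 FPKM. The remaining mt-encoded members ran from 34.7 FPKM in mt-Nd3 upwards. With the exception of mt-Atp8 these are the ones with annotated copies on chromosome 1 over nearly their whole length. mt-Atp8 (chromosome M, 7766 to 7969) starts between mt-Co2 and mt-Atp6, whose annotated copies lie in the same stretch of chromosome 1. Shared windows were sought in annotated genes only. Whether that stretch also holds a copy of mt-Atp8 was not tested. mt-Atp8 shares 21.1% of its exon bases with mt-Atp6, and only 18 to 83 reads were assigned to it per library.

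**Figure D1:**
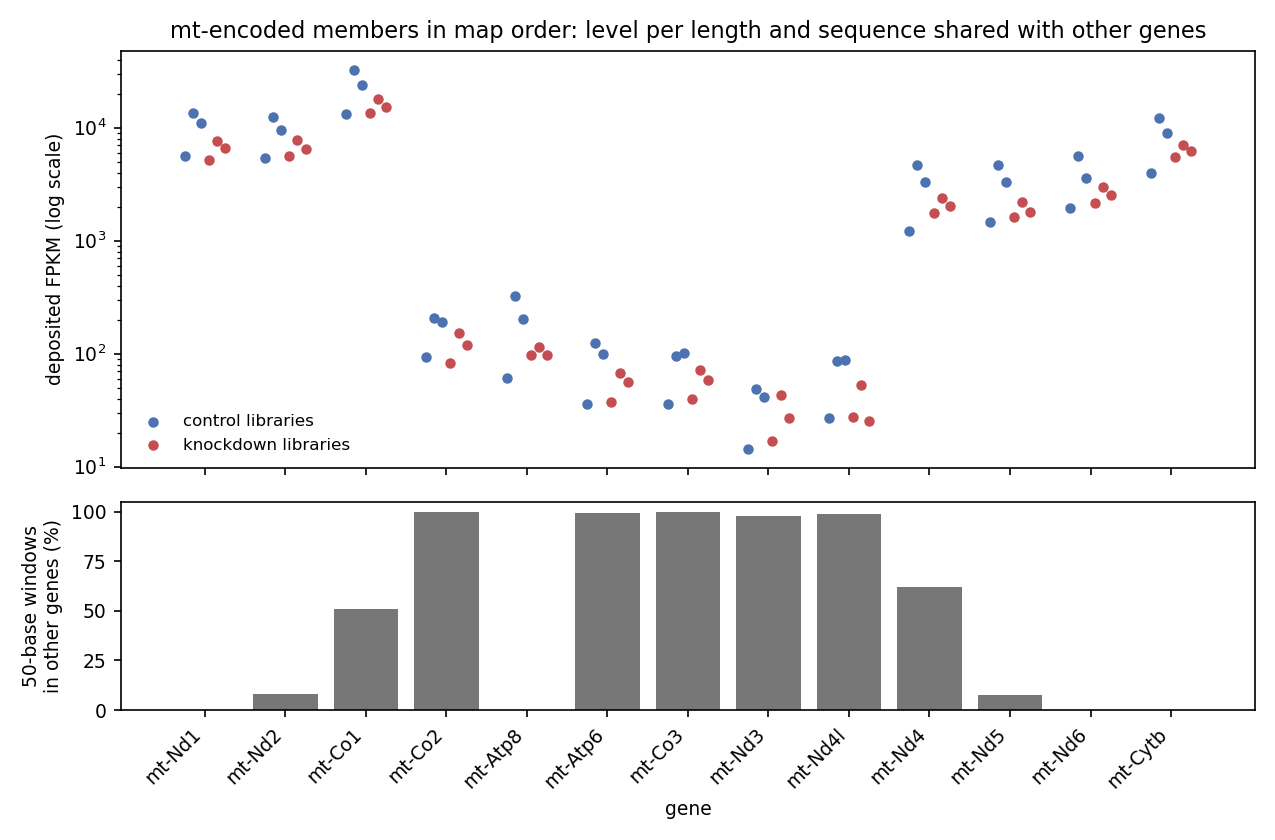
Deposited FPKM of the 13 mt-encoded members in each library (upper panel, log scale, blue for control and red for knockdown, replicates 1 to 3 from left to right) and percent of 50-base windows found in other annotated genes (lower panel), in map order. mt-Co2, mt-Atp6, mt-Co3, mt-Nd3 and mt-Nd4l combine low FPKM with 98.0% to 100% shared windows, and control replicate 1 lies below both other controls for every gene.

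The nuclear members were lower in the knockdown libraries as a group of small differences, and with all 6 libraries no single member passed the test. The summed level of the nuclear members was 14173, 10109 and 11522 CPM in the controls against 8072, 9597 and 8119 CPM with the knockdown. The groups did not overlap, but control replicate 2 lay close to knockdown replicate 2. Of the 92 nuclear members 87 had enough reads to test, and 83 of these had a negative log2 fold change (knockdown over control) with all 6 libraries. Their median log2 fold change was -0.49, a ratio of 0.713, against -0.05 over all 13767 genes tested. The 3 knockdown values lay below all 3 control values for 41 of the 87 (47.1%), against 10% of all genes tested. The opposite was seen for 1, Cox6b2, against 13%. By edgeR's quasi-likelihood test with Benjamini-Hochberg adjustment, 0 nuclear members were called lower and 0 higher at an adjusted p under 0.05, where 0.123% of all genes were called lower and 0.741% higher. An unadjusted p under 0.05 was reached by 35 of the 87, against 14.5% of all genes. DESeq2 called 9 lower and 1 higher, against 2.16% and 4.62% of all genes. With limma-voom and library quality weights 35 were lower and 1 higher, against 18.2% and 18.7% of all genes.

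**Figure D2:**
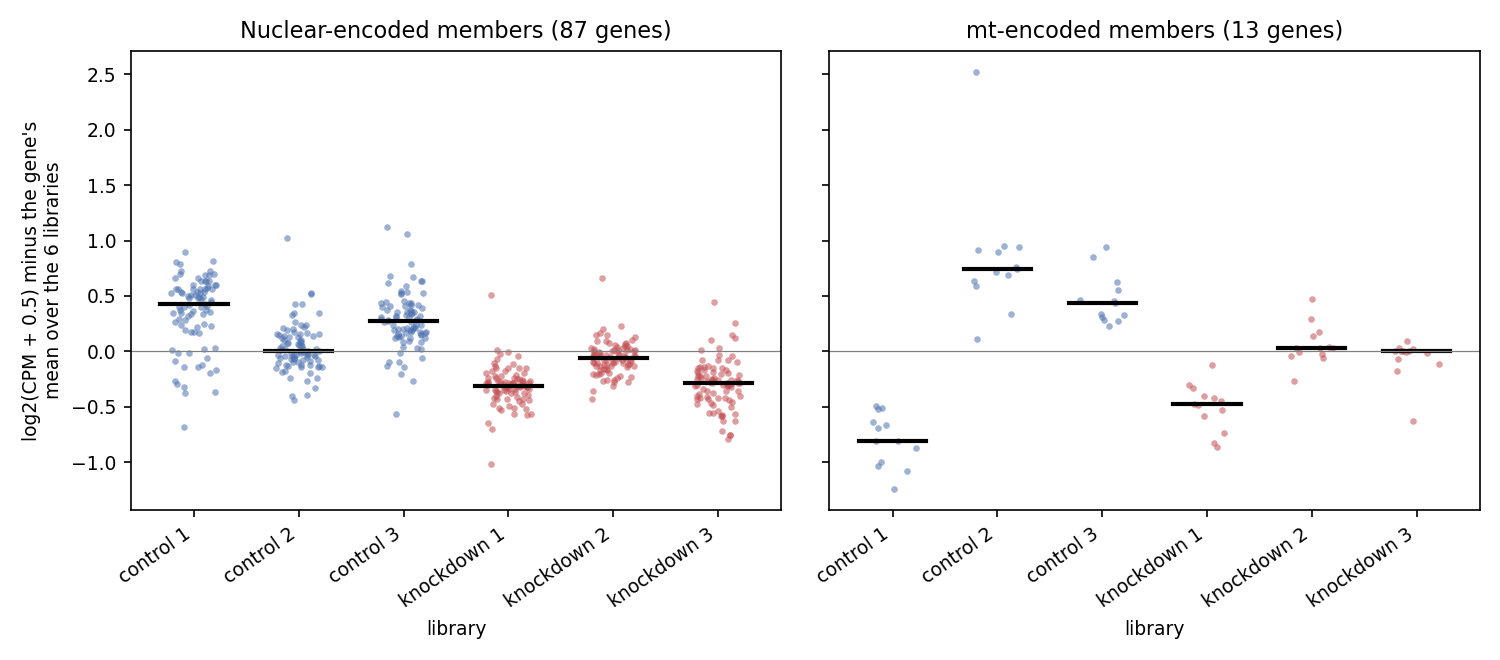
Deviation of each tested member's log2(CPM + 0.5) from its own mean over the 6 libraries, for 87 nuclear (left) and 13 mt-encoded members (right). Points are genes and black bars are medians: control replicate 1 has the highest nuclear median (0.43) and the lowest mt median (-0.81).

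Control replicate 1 was the highest of the 6 libraries for 56 of the 87 tested nuclear members. It lay above both other controls for 64.4% of them, against 47.6% of all genes tested. Without it, the median log2 fold change of the nuclear members was -0.36, against 0.01 over the 14222 genes then tested, and 79 of 87 were negative. The remaining 5 libraries gave 29 nuclear members called lower (33.3%), against 16.1% of all genes, and 1 called higher, against 16.5%. The groups were apart for 49 of them in the lower direction (56.3%), against 29.9% of all genes, and for 2 in the higher direction, Cox6b2 and Ndufaf3, against 28.7%. Leaving out control replicate 3 or 2 as well left 1 control library, so only sizes are given for those fits. The median log2 fold change of the nuclear members was then -0.22 and -0.48 in turn, against 0.01 and 0.04 over all genes. With knockdown replicate 1 left out instead, 11 nuclear members were called lower (12.6%), against 10.1% of all genes.

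The mt-encoded members differed from the nuclear members in which control stood low. Their summed level was 28282, 72275 and 54380 CPM in the controls against 31325, 42121 and 40235 CPM with the knockdown. The groups overlapped because control replicate 1 was the lowest of all 6 libraries, while control replicates 2 and 3 were the highest. As a share of gene reads the mt-encoded members accounted for 2.41%, 6.82% and 5.25% in the controls against 3.44%, 4.37% and 4.55% with the knockdown. The ratio of mt-encoded to nuclear summed CPM was 2.00, 7.15 and 4.72 in the controls against 3.88, 4.39 and 4.96 with the knockdown, so the knockdown values fell inside the control range. On the log2 scale the mean ratio differed by 0.11 (knockdown minus control) with all 6 libraries and by -0.41 without control replicate 1. The 2 differences have opposite signs.

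**Figure D3:**
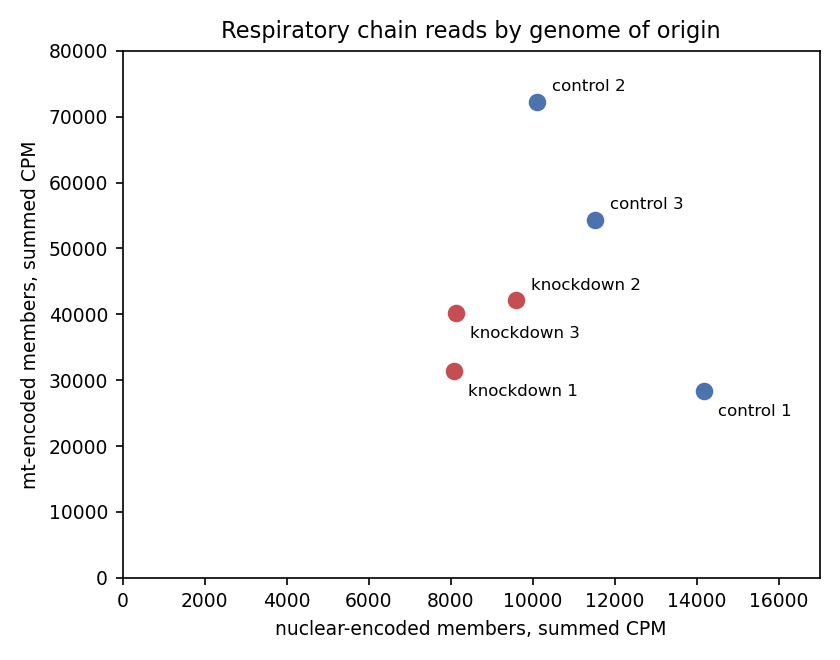
Summed CPM of nuclear-encoded (x axis) and mt-encoded members (y axis) in each library, with controls in blue and knockdown libraries in red. Control replicate 1 has the most nuclear-encoded and the fewest mt-encoded reads (14173 and 28282 CPM), and the 3 knockdown libraries lie below control replicates 2 and 3 on both axes.

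With all 6 libraries, 12 of the 13 mt-encoded members had a negative log2 fold change, with a median of -0.44. None was called by edgeR or DESeq2, and none had an unadjusted p under 0.05 in edgeR, against 14.5% of all genes. None had groups apart, against 10% of all genes in the lower and 13% in the higher direction. limma-voom with library quality weights called 11 lower, against 18.2% of all genes. All 13 were negative without control replicate 1, with a median of -0.73 (a ratio of 0.601). Of these 10 were called lower (76.9%, against 16.1% of all genes), and 12 had groups apart in the lower direction, against 29.9% of all genes. With control replicate 2 left out as well 2 were called lower, or 15.4%, against 9.55% of all genes. With control replicate 3 left out it was 7, against 7.59%, and with knockdown replicate 1 left out 4, against 10.1%. The mt-encoded genes are cut from shared precursors and read in the same libraries, so they are not 13 independent observations.

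The most abundant, mt-Co1, stood at 14310, 34653 and 25853 CPM in the controls against 15040, 20061 and 18880 CPM with the knockdown. Its log2 fold change was -0.47 ± 0.36 (SE) with all 6 libraries (edgeR adjusted p = 0.615) and -0.73 ± 0.22 without control replicate 1 (adjusted p = 0.029). Control replicates 2 and 3 lay above every other library, and control replicate 1 lay below them all. The order was the same for mt-Cytb, the catalytic core of complex III (chromosome M, 14145 to 15288, plus strand), at 3106, 9122 and 6820 CPM against 4408, 5571 and 5464 CPM. mt-Nd5, a proton-pumping subunit of complex I, stood at 2257, 6878 and 4825 CPM in the controls against 2550, 3430 and 3156 CPM with the knockdown. Without control replicate 1 the log2 fold change of mt-Nd5 was -0.93 ± 0.21 (adjusted p = 0.00839). mt-Nd6, which is encoded on the other strand from the rest (chromosome M, 13552 to 14070, minus strand), behaved alike, at 454, 1368 and 860 CPM against 526, 750 and 732 CPM. mt-Nd1, mt-Nd4, mt-Co2, mt-Co3 and mt-Atp6 were also called lower without control replicate 1, with log2 fold changes from -0.68 in mt-Co3 to -1.18 in mt-Atp6.

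The 3 members not called without control replicate 1 were mt-Nd2 (-0.57, adjusted p = 0.0598), mt-Nd3 (-0.60, adjusted p = 0.0932) and mt-Atp8 (-0.07, adjusted p = 0.899). mt-Nd4l had the widest difference, -2.44 ± 0.49 (adjusted p = 0.00469), but it rested on 1 library. It stood at 53.6 CPM in control replicate 2 (1869 reads), with 3.94 and 10.9 CPM in the rest of the controls, and had 4.80, 7.31 and 5.57 CPM with the knockdown. The deposited FPKM do not show that peak: they were 26.8, 85.5 and 87.6 in the controls against 27.3, 52.7 and 25.2 with the knockdown. The 6 mt-encoded members with under 10% of windows shared summed to 12758, 33088 and 25191 CPM in the controls against 14490, 19598 and 18953 CPM with the knockdown, the same order as the 7 with over 50% shared. The ribosomal RNAs of the mitochondrion moved with them: mt-Rnr2 stood at 116, 710 and 643 CPM in the controls against 182, 323 and 259 CPM with the knockdown, and mt-Rnr1 at 87.8, 378 and 400 CPM against 111, 267 and 178 CPM.

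GC content moved with these differences. The transcripts of the mt-encoded members have 31.9% to 41.1% GC (median 37.1%), against a median of 50% in the tested nuclear members. Spearman correlations of the log2 fold change without control replicate 1 with GC content were 0.35 over all genes tested and 0.34 over the nuclear members. With all 6 libraries they were 0.081 and 0.095. All are across genes, which are not independent replicates. The 1351 other genes in the GC range of the mt-encoded members had a median log2 fold change of -0.59, and 46.7% of them were called lower. When each library's GC and transcript length trends were entered as an offset, the median of the mt-encoded members without control replicate 1 was -0.02, against -0.12 over all genes. The fit then called 1 mt-encoded member lower (mt-Nd4l) and 2 higher (mt-Nd3 and mt-Atp8), against 21.2% and 12% of all genes. With all 6 libraries the offset left their median at -0.37, against -0.44 without it, and 11 of the 13 were negative. The median over all genes was -0.17 in that fit. A lower level of mt RNA and the GC trend cannot be told apart in these libraries.

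The same offset left the median of the nuclear members near where it was but lowered that of all genes, and it changed which members were called. Without control replicate 1 the nuclear median was -0.36 before the offset and -0.40 with it, against 0.01 and -0.12 over all genes. With the offset 41 nuclear members were called lower (47.1%, against 21.2% of all genes) and 1 higher, against 12%. Of the 29 called lower without it, 19 were called lower with it. The offset moved the calls over all genes from 2348 higher and 2284 lower to 1710 higher and 3018 lower, so that 36.2% of calls were higher in place of 50.7%. With all 6 libraries the offset gave 9 nuclear members lower, against 2.43% of all genes, namely Ndufb4, Ndufb9, Ndufc2, Ndufs1, Ndufv1, Cox6c, Cox8a, Atp5d and Ndufaf4. It moved the median of all genes from -0.05 to -0.17 and the share of calls that were higher from 85.7% to 48.6%.

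**Figure D4:**
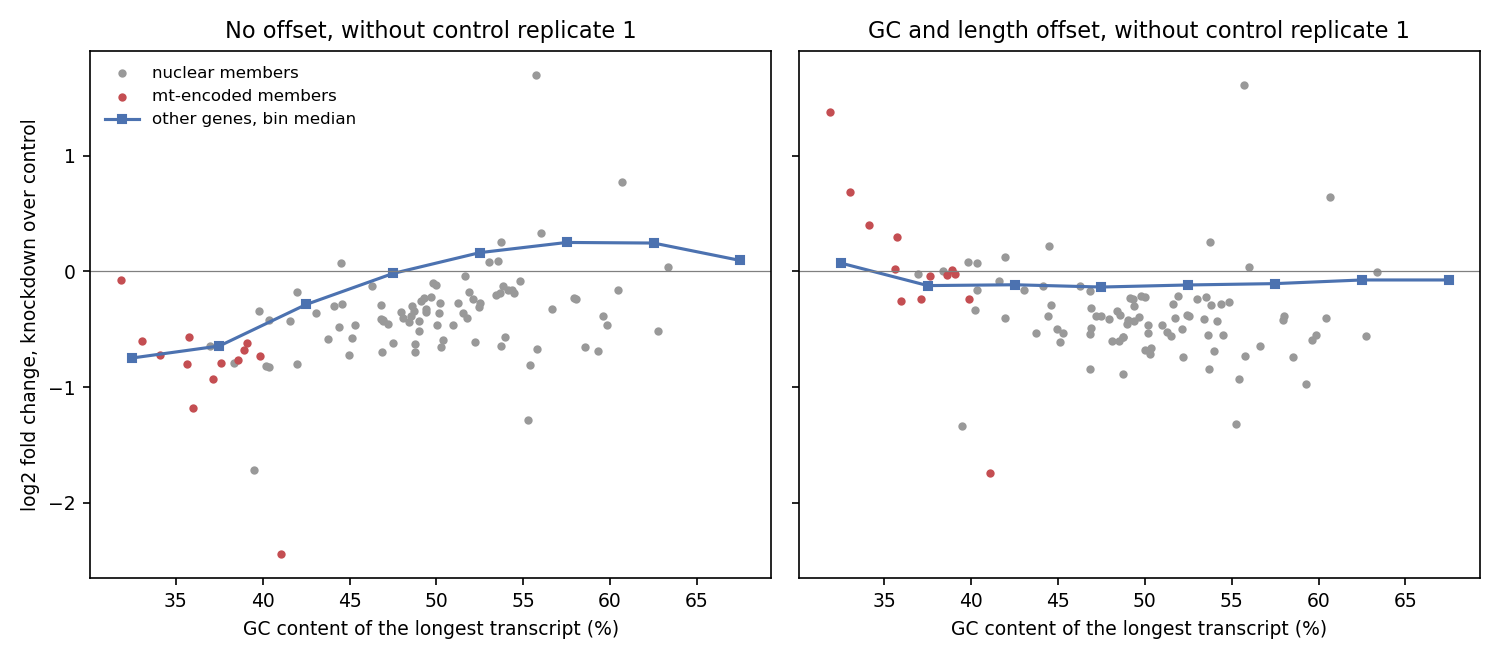
Log2 fold change without control replicate 1 against GC content of the longest transcript, without (left) and with (right) the GC and length offset. Grey points are nuclear and red points mt-encoded members, and the blue line joins medians of other genes in bins of 5 percentage points, which rise from -0.75 at the lowest GC to 0.25 between 55% and 60% without the offset and lie between -0.14 and 0.07 with it.

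By complex, the nuclear subunits of complexes I to V had similar medians. With all 6 libraries these were -0.49 in complex I, -0.49 in complex II, -0.48 in complex III, -0.60 in complex IV and -0.46 in complex V, and -0.34 in the 11 assembly factors and related genes. They were -0.36, -0.33, -0.33, -0.46, -0.42 and -0.12 in the same order without control replicate 1. The counts called lower without control replicate 1 were 11 of 36 in complex I, 0 of 4 in complex II, 2 of 8 in complex III, 6 of 13 tested in complex IV, 7 of 15 in complex V and 3 of 11 in the last group, where 16.1% of all genes were called lower. Whether the complexes differed from each other was not tested.

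**Figure D5:**
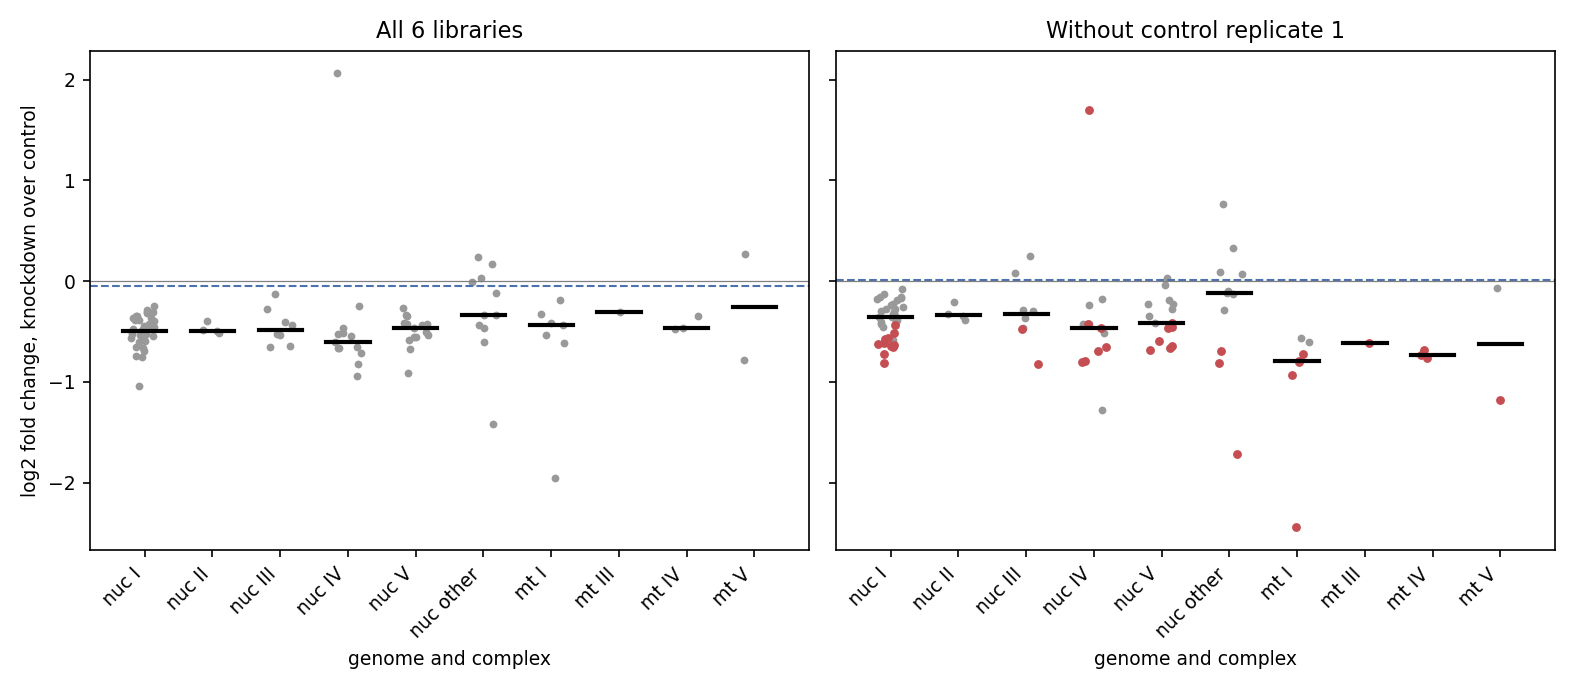
Log2 fold change (knockdown over control) of each tested member by genome (nuc, nuclear; mt, mitochondrial) and complex, with all 6 libraries (left) and without control replicate 1 (right). Red points were called at an adjusted p under 0.05, black bars are medians and the dashed blue line is the median of all genes tested (-0.05 and 0.01).

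Among the nuclear subunits of complex I the widest difference was in Ndufb9, an accessory subunit of the membrane arm (GRCm38 chromosome 15, 58933756 to 58939488, plus strand). It stood at 196, 121 and 143 CPM in the controls against 65, 87 and 71.5 CPM with the knockdown. All 3 knockdown values lay below the controls. The log2 fold change was -1.04 ± 0.24 (SE) with all 6 libraries, with an adjusted p of 0.110, the smallest of any member, and -0.81 ± 0.15 without control replicate 1 (adjusted p = 0.00359). The overlapping gene Gm49356 shares 19.5% of its exon bases. Ndufb4, another membrane-arm subunit, stood at 50.7, 42.6 and 51.1 CPM against 29, 32.3 and 29.7 CPM, and Ndufc2 at 60.8, 46.4 and 52.8 CPM against 29.4, 34.8 and 31.0 CPM. Both were apart in all 6 libraries and were called lower without control replicate 1 (adjusted p = 0.00607 and 0.00524).

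Of the core subunits of complex I that carry electrons, Ndufs1 and Ndufv1 differed in where control replicate 1 lay. Ndufs1, the large iron-sulfur subunit, stood at 98.0, 136 and 147 CPM in the controls against 90.1, 93.5 and 98.2 CPM with the knockdown, where control replicate 1 sat with the knockdown. Its log2 fold change was -0.43 with all 6 libraries (adjusted p = 0.390) and -0.57 without control replicate 1 (adjusted p = 0.00755). Ndufv1, which binds NADH, showed the other order, at 224, 138 and 151 CPM against 111, 129 and 103 CPM, with a log2 fold change of -0.58 with all 6 libraries (adjusted p = 0.315) and -0.33 without control replicate 1 (adjusted p = 0.100). The transcripts of Ndufs1 and Ndufv1 have 45.13% and 56.65% GC. With the GC and length offset both were called lower at a similar size. They were at -0.61 and -0.64 without control replicate 1 (adjusted p = 0.0044 and 0.0048). With all 6 libraries and the offset they were at -0.62 and -0.63 (adjusted p = 0.043 and 0.047). The counts of Ndufb2 do not match its FPKM: it had 42 to 105 reads per library but 57.9 to 104 FPKM. Its exons overlap those of Braf, Gm16272 and Gm42420.

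Complex II, which is also the succinate dehydrogenase of the citric acid cycle, had no member called by edgeR with all 6 libraries or without control replicate 1. Sdha, the flavoprotein, stood at 573, 552 and 603 CPM in the controls against 407, 462 and 447 CPM with the knockdown, and the groups did not overlap. Its log2 fold change was -0.39 ± 0.17 with all 6 libraries (adjusted p = 0.351) and -0.38 ± 0.15 without control replicate 1 (adjusted p = 0.0681). Sdhc and Sdhd, the membrane anchors, were also apart in all 6 libraries. Sdhb, the iron-sulfur subunit, stood at 258, 157 and 163 CPM against 124, 159 and 129 CPM, and the groups overlapped. With the GC and length offset and without control replicate 1, all 4 were called lower, with log2 fold changes from -0.41 in Sdhb to -0.60 in Sdha.

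In complex III, Uqcrb and Uqcrc2 were called lower without control replicate 1. Uqcrb, a small subunit near the ubiquinone site, stood at 53.1, 78.1 and 90.2 CPM in the controls against 39.0, 47.8 and 54.3 CPM with the knockdown, with a log2 fold change of -0.82 ± 0.16 without control replicate 1 (adjusted p = 0.00393), and -0.16 with the GC and length offset (adjusted p = 0.284). Uqcrc2, a core subunit, stood at 280, 259 and 262 CPM against 167, 186 and 203 CPM and was apart in all 6 libraries, although 19.8% of its exon bases overlap the antisense gene Pdzd9. The other core subunit, Uqcrc1, stood at 421, 221 and 244 CPM against 228, 285 and 215 CPM, and its log2 fold change was -0.28 with all 6 libraries and 0.08 without control replicate 1. Uqcr10 changed sign in the same way, from -0.13 to 0.25, and neither was called. Uqcrfs1, the Rieske iron-sulfur protein, stood at 205, 161 and 182 CPM against 142, 154 and 118 CPM (adjusted p = 0.152 without control replicate 1).

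Among the nuclear subunits of complex IV, 6 were called lower without control replicate 1, all of them small ones. Cox6c stood at 133, 134 and 163 CPM in the controls against 83.6, 94.8 and 93.3 CPM with the knockdown, with a log2 fold change of -0.66 ± 0.18 with all 6 libraries (adjusted p = 0.152) and -0.70 ± 0.14 without control replicate 1 (adjusted p = 0.00484). Cox7b stood at 83.9, 108 and 131 CPM against 58.3, 78.7 and 66.9 CPM. Cox7c stood at 139, 141 and 198 CPM against 90.1, 110 and 91.9 CPM. Cox8a stood at 202, 144 and 157 CPM against 97.6, 115 and 71.8 CPM. All 4 were apart in the 6 libraries, and Cox6b1 and Ndufa4 were called lower without control replicate 1 as well. With the GC and length offset, Cox7c (38.4% GC) turned from -0.79 to 0.01 and Ndufa4 from -0.42 to 0.07 without control replicate 1, while Cox6c (-0.85) and Cox8a (-0.74) were still called. Cox4i1 stood at 450, 260 and 288 CPM against 214, 266 and 212 CPM and Cox5a at 91.9, 65.7 and 82.9 CPM against 56.1, 64.2 and 44.3 CPM. Neither Cox4i1 nor Cox5a was called, although Cox4i1 was with the offset and without control replicate 1 (-0.39, adjusted p = 0.0476).

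Several complex IV subunits exist as isoforms that differ between tissues, and reads fell mostly on the forms known from liver. Cox4i2, Cox6a2, Cox7b2, Cox8b and Cox8c had too few reads to test: Cox7b2, Cox8b and Cox8c had 0 reads in all 6 libraries, which allows up to 0.0790 to 0.0940 CPM per library, Cox6a2 had 1 read in all and Cox4i2 had 0 to 5 reads per library. Their partners Cox4i1, Cox6a1, Cox7b and Cox8a stood at 58.3 CPM or more in every library. Cox7a1, the form known from heart and skeletal muscle, stood at 0.266 to 2.01 CPM, against 55.1 to 78.4 CPM for Cox7a2. Cox6b2, the form known from testis, was the only member called higher without control replicate 1 and without the offset. It had 2, 6 and 9 reads in the controls and 33, 36 and 22 reads in the knockdown libraries, or 0.0662, 0.172 and 0.292 CPM against 0.799, 0.940 and 0.512 CPM. Its log2 fold change was 2.06 ± 0.60 with all 6 libraries (adjusted p = 0.186) and 1.70 ± 0.58 without control replicate 1 (adjusted p = 0.0471). That call was lost when knockdown replicate 1 or 2 was also left out. It was lost as well when control replicate 2 or 3 was left out, which left 1 control library. Its partner Cox6b1 stood at 87.3 to 148 CPM.

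In complex V, Atp5a1 and the catalytic subunit Atp5b were not called, and 7 other nuclear subunits were called lower without control replicate 1. Atp5b stood at 2132, 1257 and 1314 CPM in the controls against 1164, 1380 and 1177 CPM with the knockdown, with a log2 fold change of -0.34 ± 0.26 with all 6 libraries (adjusted p = 0.616) and -0.04 ± 0.16 without control replicate 1 (adjusted p = 0.878). Atp5a1 stood at 1588, 1026 and 1145 CPM against 903, 1049 and 874 CPM. For both genes control replicate 1 was the highest library, and the groups overlapped in the other 5. With the GC and length offset and without control replicate 1, Atp5a1 was called lower (-0.55, adjusted p = 0.0199) and Atp5b was not (-0.28, adjusted p = 0.179). The central-stalk subunit Atp5d stood at 271, 171 and 199 CPM against 110, 140 and 90.9 CPM, with a log2 fold change of -0.91 ± 0.25 with all 6 libraries (adjusted p = 0.169) and -0.69 ± 0.18 without control replicate 1 (adjusted p = 0.0153). Atp5f1, the peripheral-stalk subunit b, stood at 333, 312 and 341 CPM against 182, 209 and 228 CPM, with -0.67 ± 0.18 and -0.65 ± 0.15 in turn (adjusted p = 0.151 and 0.00969). Its transcript has 37.0% GC, and with the GC and length offset its log2 fold change without control replicate 1 was -0.02. Atp5h, Atp5j, Atp5j2, Atp5k and Atp5o were also called lower without control replicate 1. The 3 genes for the c subunit of the rotor ring encode the same mature protein, and none was called: without control replicate 1, Atp5g1 was at -0.42, Atp5g2 at 0.03 and Atp5g3 at -0.23.

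The assembly factor Ndufaf4 had the smallest adjusted p of any member without control replicate 1. This factor of the early complex I intermediate (GRCm38 chromosome 4, 24898083 to 24905001, plus strand) stood at 19.9, 46.8 and 50.2 CPM in the controls against 11.0, 16.8 and 15.9 CPM with the knockdown. The groups did not overlap, although control replicate 1 lay nearer to the knockdown libraries than to the other controls. Its log2 fold change was -1.42 ± 0.38 with all 6 libraries (edgeR adjusted p = 0.152, DESeq2 adjusted p = 0.0142) and -1.72 ± 0.18 without control replicate 1 (adjusted p = 0.000245). With the GC and length offset it was called in both, at -1.56 and -1.34 (adjusted p = 0.0188 and 0.000490). Of the other assembly factors, Ndufaf2 was called lower without control replicate 1 (-0.70, adjusted p = 0.0194), with the antisense overlap given above. Ndufaf1, Ndufaf3, Ndufaf5, Ndufaf6 and Ndufaf7 were not called, and Ndufaf3 had a positive log2 fold change of 0.33 (adjusted p = 0.177). Atp5s, an ATP synthase coupling factor, was lower without control replicate 1 (-0.82, adjusted p = 0.00776).

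Other genes of the pathway were taken from lists of assembly factors, regulators and mitochondrial functions, and with all 6 libraries edgeR called none of them. Cytochrome c (Cycs) was lower without control replicate 1, at 63.6, 90.1 and 101 CPM in the controls against 56.4, 59.3 and 68.5 CPM with the knockdown (-0.62, adjusted p = 0.00756), and 2010107E04Rik, a small ATP synthase subunit, was lower too. The ATP synthase inhibitor Atpif1 was higher, at 2.91, 2.29 and 3.28 CPM against 4.97, 4.91 and 6.92 CPM (1.03, adjusted p = 0.0183). Assembly factors were called lower in 3 of 10 cases for complex I (Foxred1, Tmem126a and Tmem126b), 2 of 4 for complex II (Sdhaf3 and Sdhaf4), 2 of 6 for complex III (Ttc19 and Lyrm7), 3 of 21 for complex IV and 1 of 3 for complex V (Tmem70), and none was called higher. These are counts without control replicate 1, where 16.1% of all genes were called lower, a share that the 3 of 21 for complex IV does not pass. That share varied with GC content, from 48.6% of genes at 35% to 40% GC to 4.74% at 55% to 60%. GC content and offset values are not given for the genes of these lists, here or below. Coa6, which helps deliver copper to complex IV, had the clearest difference among these, at 26.1, 32.9 and 33.4 CPM in the controls against 15.1, 16.2 and 12.1 CPM with the knockdown (-1.18, adjusted p = 0.000498, with 0.0744 in all 6 libraries).

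Genes for mtDNA replication, transcription and mt RNA stability were called lower in 6 of 27 cases and higher in 0 without control replicate 1, near the 16.1% of all genes called lower. Tfb2m, a transcription factor of the mt RNA polymerase, stood at 15.7, 39.3 and 40.5 CPM in the controls against 17.3, 18.6 and 16.6 CPM with the knockdown (-1.17, adjusted p = 0.000264). Trmt10c, a subunit of mitochondrial RNase P, stood at 2.62, 25.3 and 25.4 CPM against 8.5, 11.0 and 12.1 CPM, and Fastkd1 at 20.7, 34.5 and 35.3 CPM against 16.1, 18 and 18.7 CPM. In Trmt10c, as in 11 of the 13 mt-encoded members, control replicate 1 was the lowest of the 6 libraries. Among 16 regulators of mitochondrial biogenesis 5 were called lower and 3 higher, against 16.1% and 16.5% of all genes. Those lower included Prkaa2, a catalytic subunit of AMP-activated kinase (-1.02), Gabpa, the DNA-binding subunit of GABP (-0.64), and Esrrg (-2.94), which was at 0.132, 4.18 and 5.36 CPM in the controls against 0.218, 1.04 and 0.582 CPM with the knockdown. In Gabpa and Prkaa2 control replicate 1 lay below every knockdown library, at 9.96 and 25 CPM. Those higher included Gabpb1, the partner subunit of Gabpa, at 6.09, 6.42 and 3.86 CPM against 9.35, 9.53 and 9.78 CPM (0.91, adjusted p = 0.0146). Of 76 mitochondrial ribosomal protein genes 14 were called lower and 0 higher, close to the 16.1% of all genes called lower.

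Citric acid cycle genes were called lower in 7 of 16 cases without control replicate 1 and higher in 0, against 16.1% and 16.5% of all genes. Idh3a, a subunit of isocitrate dehydrogenase, stood at 39.6, 62.3 and 73.9 CPM against 27.6, 29.5 and 34.0 CPM. Outer membrane, import and cristae genes were called lower in 5 of 18 cases and higher in 0, against the same shares of all genes, among them Opa1, which shapes the cristae (-0.85), and the chaperone Hspd1 (-0.90). For Opa1 and Hspd1 control replicate 1 lay below the knockdown libraries.

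Markers of other liver cells also differed between the groups. The 12 hepatocyte markers summed to 136200 to 161700 CPM in the controls, and the knockdown range was 119300 to 136000 CPM. Of the 12, 4 were called lower and 0 higher without control replicate 1, against 16.1% and 16.5% of all genes. Stellate cell and fibroblast markers summed to 188 to 210 CPM against 301 to 416 CPM. Of these, 5 of 8 were called higher without control replicate 1, against 16.5% of all genes, and 1 with all 6 libraries, against 0.741%. Kupffer cell and macrophage markers summed to 550 CPM in control replicate 1, 264 to 294 CPM in the other controls and 461 to 534 CPM in the knockdown libraries. Of these, 7 of 10 were called higher without control replicate 1, against 16.5% of all genes, and 0 with all 6 libraries, against 0.741%. The cholangiocyte list summed to 57.3 to 64.5 CPM against 353 to 578 CPM. Of that, Spp1 made up 30.7 to 40.8 against 322 to 539 CPM, while the defining markers Krt19, Krt7 and Cftr stayed under 0.5 CPM in every library. Endothelial markers summed to 215 to 398 CPM against 246 to 313 CPM. Of that, Dpp4 made up 58.6, 252 and 260 CPM in the controls against 124, 126 and 141 CPM with the knockdown. Without control replicate 1, 6 of the 8 endothelial markers had a positive log2 fold change. In that fit 1 was called higher (Cdh5) and 1 lower (Dpp4), against 16.5% and 16.1% of all genes. Neutrophil markers stayed under 1 CPM in every library, lymphocyte markers summed to 0.828 to 6.17 CPM against 3.997 to 5.302 CPM, and erythroid markers to 13.04 to 31.69 CPM against 17.8 to 21.1 CPM. Most of the lymphocyte sum was Ptprc (0.530 to 5.98 CPM against 3.78 to 4.83 CPM). Nearly all of the erythroid sum was Alas2 (12.8 to 31.7 CPM against 17.7 to 21.1 CPM). The part of other cell types in the lower nuclear members was not tested.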

How the data were processed

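Total RNA of 6 mouse liver libraries, 3 control and 3 Atoh8 knockdown, was read by Illumina sequencing. Per the submitters' processing notes, the authors used FastQC, Trim Galore, HISAT2 2.10, HTSeq, Cufflinks 2.2.1 and the build GRCm38. The authors deposited unnormalized counts of reads per gene, 1 file a library, and a table of FPKM values per gene, per the file headers. Trimming settings, the annotation and the strand setting are not given in the sources used here. Lines that name no gene were left out: 2.48% to 5.66% of reads lay outside genes and 4.69% to 6.87% were ambiguous.

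Counts were fitted with edgeR 4.0.16 in R 4.3.3 (filterByExpr, TMM, quasi-likelihood F test), with all 6 libraries and without control replicate 1. Every adjusted p in the text is from this fit with Benjamini-Hochberg adjustment over all genes tested, unless another tool is named, and a gene was called at an adjusted p under 0.05. CPM use the TMM factors of all 6 libraries. The fits were tested on simulated counts with known changes. Alternatives were DESeq2 1.42.0 and limma 3.58.1 (voom with library weights, and log2(FPKM + 1) or log2(FPKM + 0.1)), other scalings and filters, a replicate block and a GC and length offset. Positions, transcript lengths and GC content are from GENCODE M21, in which 47310 of 47729 count genes were found. The members, the gene lists and the alternatives were chosen with earlier results of these data known. The rule named the mt-encoded members, a short list of major nuclear subunits, tissue isoforms and members not tested. It also named up to 4 members per complex and direction with the smallest p in either fit, and up to 3 genes of each other list. Ndufb2, Ndufs5, Atp5h, Atp5k, Ndufaf1, Ndufaf6 and Gabpb1 were named after their values were seen. Some genes of the set and of the lists are not reported here by name.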

Additional observations from a re-analysis of the deposited data

How the results depend on the processing

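The 2 comparisons, with all 6 libraries and without control replicate 1, were refitted under each alternative. Depth was not the limit for most members, but mt-Atp8, mt-Nd3, Cox6b2 and Cox7a1 rested on few reads. With 3 libraries or fewer a group, 1 library can decide a call, and the cause of the changes below was not tested.

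With all 6 libraries, DESeq2 called 1 nuclear member higher and 9 lower (636 and 298 of all genes), and limma-voom with library weights 1 higher and 35 lower, with 11 mt-encoded members lower (2576 and 2512 of all genes). The GC and length offset gave 9 nuclear members lower (317 and 335 of all genes), and no filter 213 and 34 of all genes. limma on log2(FPKM + 1) called 27 of all genes lower. The median log2 fold change of the assembly factors and related genes was -0.15 under limma-voom, -0.14 with log2(FPKM + 1) and -0.15 with log2(FPKM + 0.1). Leaving out each library in turn gave 0 to 1 nuclear members higher, 0 to 29 lower, 0 to 10 mt-encoded members lower, 0 to 2348 of all genes higher and 0 to 2284 lower, with medians of the assembly factors and related genes from -0.37 to -0.12. The counts of members above 0 came from leaving out control replicate 1.

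Without control replicate 1, the filter at 1 CPM left 0 nuclear members called higher, since Cox6b2 was not tested. The offset called 2 mt-encoded members higher and 1 lower, with medians of -0.021 for all mt-encoded members, 0.020 for complex I, -0.021 for complex III, -0.031 for complex IV, 0.56 for complex V and -0.22 for the assembly factors and related genes. Leaving out a further library gave 0 to 1 nuclear members higher, 3 to 41 lower, 2 to 11 mt-encoded members lower, 989 to 2247 of all genes higher and 1131 to 2258 lower, with medians of the assembly factors and related genes from -0.22 to -0.081.

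Replicate numbers were not taken as pairs in the main fits, and the values do not settle whether same-numbered libraries were handled together. The correlations of the deviations of same-numbered libraries were 0.30, -0.12 and 0.36. Control replicates 1 and 3 correlated best with the knockdown library of their own number, and control replicate 2 with knockdown replicate 3 (0.33). A replicate block with all 6 libraries called 33 of all genes higher and 2 lower and no member. Without control replicate 1 the replicate block called 23 nuclear and 7 mt-encoded members lower and 0 nuclear members higher. With the offset as well, it called 63 of all genes lower with all 6 libraries. Without control replicate 1, the block with the offset called 0 nuclear members higher, 1 mt-encoded member higher, 1 lower and 1376 of all genes higher. Its medians were 0.048 for the mt-encoded members, 0.048 for their complex I, 0.0091 for complex III, 0.10 for complex IV, 0.58 for complex V and -0.21 for the assembly factors and related genes.

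Among the values of named genes with all 6 libraries, 40 changed direction, 185 gained a call and 1488 kept both. Without control replicate 1, 37 changed direction, 187 lost a call, 48 gained one and 1342 kept both. With all 6 libraries, no filter turned Ndufaf1 to 0.034. The filter at 1 CPM turned Ndufaf1 to 0.0023. limma-voom turned Atp5g2 to 0.0078, Atp5sl to 0.021, Uqcr10 to 0.22, Uqcrc1 to 0.034 and mt-Atp8 to -0.15. log2(FPKM + 1) turned Lyrm7 to 0.062, Ndufaf6 to 0.10, Uqcr10 to 0.042 and mt-Atp8 to -0.62. log2(FPKM + 0.1) turned Ndufaf6 to 0.11, Uqcr10 to 0.043 and mt-Atp8 to -0.62. The replicate block turned Ndufaf1 to 0.0014 and mt-Nd3 to 0.053. The offset turned Ndufaf5 to -0.12, Uqcr10 to 0.054 and mt-Nd3 to 0.33. Block and offset together turned Ndufaf5 to -0.052, Uqcr10 to 0.072 and mt-Nd3 to 0.36. Leaving out each library in turn gave -0.44 to 0.034 in Atp5g2, -0.53 to 0.092 in Atp5sl, -0.64 to 0.077 in Gabpa, -0.077 to 0.77 in Ndufa4l2, -0.13 to 0.087 in Ndufaf1, -0.15 to 0.22 in Ndufaf5, -0.33 to 0.25 in Uqcr10, -0.46 to 0.078 in Uqcrc1, -0.071 to 0.58 in mt-Atp8, -0.62 to 0.049 in mt-Cytb, -0.60 to 0.31 in mt-Nd3 and -0.72 to 0.023 in mt-Nd6.

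In the comparison without control replicate 1, log2(FPKM + 1) turned Lyrm7 to 0.044 and Ndufaf6 to 0.049. log2(FPKM + 0.1) turned Ndufaf6 to 0.052. The replicate block turned Atp5b to 0.0062 and mt-Atp8 to 0.072. The offset turned Atp5g2 to -0.0015, Atp5sl to -0.22, Cox7c to 0.0063, Ndufa4 to 0.071, Uqcrc1 to -0.24, mt-Atp8 to 1.38, mt-Co3 to 0.015, mt-Nd2 to 0.30, mt-Nd3 to 0.68, mt-Nd4 to 0.0198 and mt-Nd6 to 0.40. Block and offset together turned Atp5sl to -0.21, Ndufa4 to 0.054, Uqcrc1 to -0.19, mt-Atp8 to 1.30, mt-Co2 to 0.0998, mt-Co3 to 0.10, mt-Cytb to 0.0091, mt-Nd1 to 0.016, mt-Nd2 to 0.32, mt-Nd3 to 0.67, mt-Nd4 to 0.048 and mt-Nd6 to 0.43. Leaving out a further library gave -0.11 to 0.013 in Atp5b, -0.075 to 0.14 in Atp5g2, -0.053 to 0.21 in Atp5sl, -0.26 to 0.49 in Ndufaf5, -0.044 to 0.15 in Uqcrc1 and -0.32 to 0.0899 in mt-Atp8.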
